A study of Rattus norvegicus with 16 samples.

Results

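The comparison was between 2 differences in the diencephalon of rats: that between zinc-deficient rats and their pair-fed controls, and that between rats returned to zinc and theirs. It is the interaction contrast, (ZD minus PF) minus (ZR minus ZRPF), computed on the log2 scale for every probe set, and it used all 16 of the 16 arrays, 1 male Sprague-Dawley rat each. ZD rats ate a diet holding 0.6 mg zinc per kg for 10 days from the age of 5 weeks, and PF rats were pair-fed to them on a control diet of 30 mg zinc per kg. ZR rats first had the same 10 days of the low-zinc diet and ZRPF rats the same pair-feeding. Both then received a fixed daily 13 g of the control diet for 6 days. Each group here held 4 rats, chosen by the submitters as average in weight, zinc and salt preference from groups that began with 9 (ZD, ZR) or 6 (PF, ZRPF) rats, and all groups had been offered 300 mM NaCl in a drinking test. Some ZR and ZRPF rats had been set aside by their result in that test. The ZD and PF brains were taken at day 10 and the ZR and ZRPF brains at day 16, so age, experiment and any step done separately for the experiments cannot be told apart in levels compared across them. The contrast takes each difference within its own experiment.

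A value above 0 means that the gene stood higher in ZD against PF than in ZR against ZRPF. A contrast far from 0 can therefore arise from a difference in deficiency that was gone after recovery, from one that had turned round, or from a difference present only after recovery, and the results are ordered by these patterns. The median signal per array ran from 156.7 to 172.7. Markers of the thalamus (18 of 20 on the array tested) and of the hypothalamus (15 of 21 tested) were detected in all arrays. These regions are the main parts of the diencephalon. The mean log2 signal of the thalamus list was 10.64 to 11.00. That of the hypothalamus list was 10.26 to 10.68 in the PF and ZD arrays and 10.79 to 10.91 in the ZRPF and ZR arrays. *Sim1* and *Otp*, factors of the paraventricular hypothalamus, were among the hypothalamic markers not tested. The tissue was measured in bulk, so fewer cells of a type and less RNA per cell cannot be told apart.

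Zinc is a structural or catalytic part of many proteins, among them zinc finger transcription factors. Importers of the Slc39a family bring it into the cytosol, exporters of the Slc30a family carry it out or into vesicles, and metallothioneins bind the free ion. The transcription factor MTF1 binds metal response elements in promoters when zinc is plentiful and raises metallothionein transcription. In the brain, zinc deficiency is known for loss of appetite, and feeding recovers quickly when zinc is returned.

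Because zinc acts on transcription through that element, the promoters of the 4 listed genes of smallest interaction p are printed with its core in capitals. The core was searched on both strands as TGCACNC or TGCGCNC, which do not overlap each other. Each sequence is the 300-base window of RefSeq on build GRCr8, from 250 bases before to 50 after the gene's start.
Vim, chr17:81577011-81577310, plus strand: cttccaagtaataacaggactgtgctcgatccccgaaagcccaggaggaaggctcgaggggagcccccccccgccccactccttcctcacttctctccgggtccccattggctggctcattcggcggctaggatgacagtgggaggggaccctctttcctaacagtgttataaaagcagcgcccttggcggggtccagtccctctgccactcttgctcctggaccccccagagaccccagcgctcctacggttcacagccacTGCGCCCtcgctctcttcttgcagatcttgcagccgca
Clstn3, chr4:159051020-159051319, minus strand: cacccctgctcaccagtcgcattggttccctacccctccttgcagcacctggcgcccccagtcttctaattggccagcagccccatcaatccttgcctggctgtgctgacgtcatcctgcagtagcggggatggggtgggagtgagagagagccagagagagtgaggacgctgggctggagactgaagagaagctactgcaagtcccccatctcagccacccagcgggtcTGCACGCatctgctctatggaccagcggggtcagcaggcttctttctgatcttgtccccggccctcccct
Lyrm2, chr5:51994290-51994589, plus strand: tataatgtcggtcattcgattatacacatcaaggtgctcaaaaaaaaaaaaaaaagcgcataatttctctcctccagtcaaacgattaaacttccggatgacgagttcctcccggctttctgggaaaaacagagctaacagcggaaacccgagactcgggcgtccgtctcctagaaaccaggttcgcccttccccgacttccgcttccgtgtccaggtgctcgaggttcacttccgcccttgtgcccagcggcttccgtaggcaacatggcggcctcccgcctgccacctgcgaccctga
Tbc1d13, chr3:33806522-33806821, plus strand: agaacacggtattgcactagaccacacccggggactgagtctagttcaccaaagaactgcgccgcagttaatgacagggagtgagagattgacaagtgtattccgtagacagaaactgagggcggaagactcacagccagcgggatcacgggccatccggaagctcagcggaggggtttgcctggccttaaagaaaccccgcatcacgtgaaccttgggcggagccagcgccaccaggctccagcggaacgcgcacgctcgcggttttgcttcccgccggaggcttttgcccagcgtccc
*Vim* and *Clstn3* held 1 match each, and *Lyrm2* and *Tbc1d13* none. Of the 15 genes ranked first with an interaction above 0, 11 had a listed promoter and 7 of these (63.64%) held the core. Below 0 it was 7 of 13 (53.85%). The core was present in 2977 of 7771 promoters of tested genes (38.31%) and in 6864 of all 27457 (25%). A match is a description of the letters in this window and was not tied to binding.

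No gene passed the threshold for the interaction. In limma, 0 of 15521 probe sets (0.0%) had an adjusted p under 0.05, the lowest adjusted p being 0.375. An unadjusted p under 0.05 was found for 1025 (6.6%), where 776 would be expected with no difference at all, and 507 of them lay above 0. That share above 0 was 49.5% on the deposited scale and 45.6% after quantile normalization, but 19.1% (222 of 1163) after median centring, so the balance of the directions depends on the scaling. The median interaction over probe sets was 0.0132 as deposited, 0.0008 after quantile normalization and -0.046 after centring. Of the differences that make up the contrast, ZD minus PF called 0 probe sets (0.0%, with 1220 or 7.86% at an unadjusted p under 0.05). ZR minus ZRPF called 1 (0.00644%, with 808 or 5.21% unadjusted), that of *Clstn3*. The values that follow are thus the genes of smallest p, given with their spread and none of them a called gene for the interaction.

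Across 9278 genes the differences in the experiments had a Pearson r of 0.018 and a Spearman rho of -0.031. This is a description across genes, which are not independent replicates, and the pair of differences shares no array. The SDs of the differences over genes were 0.149 and 0.131, of the size of the median SE of the interaction, 0.144. Of all genes, 30.6% were higher in ZD and lower in ZR than in their controls and 21.9% the other way round. All 30 genes ranked first had opposite signs, as a large interaction favours them. Arrays of ZD and PF did not overlap for 404 genes (4.35%), and those of ZR and ZRPF for 262 (2.82%). Both pairs of groups were apart in opposite directions for 2 genes (0.0216%), *Armcx6* and *Hyal2*, and in the same direction for 8 (0.0862%).

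**Figure D1:**
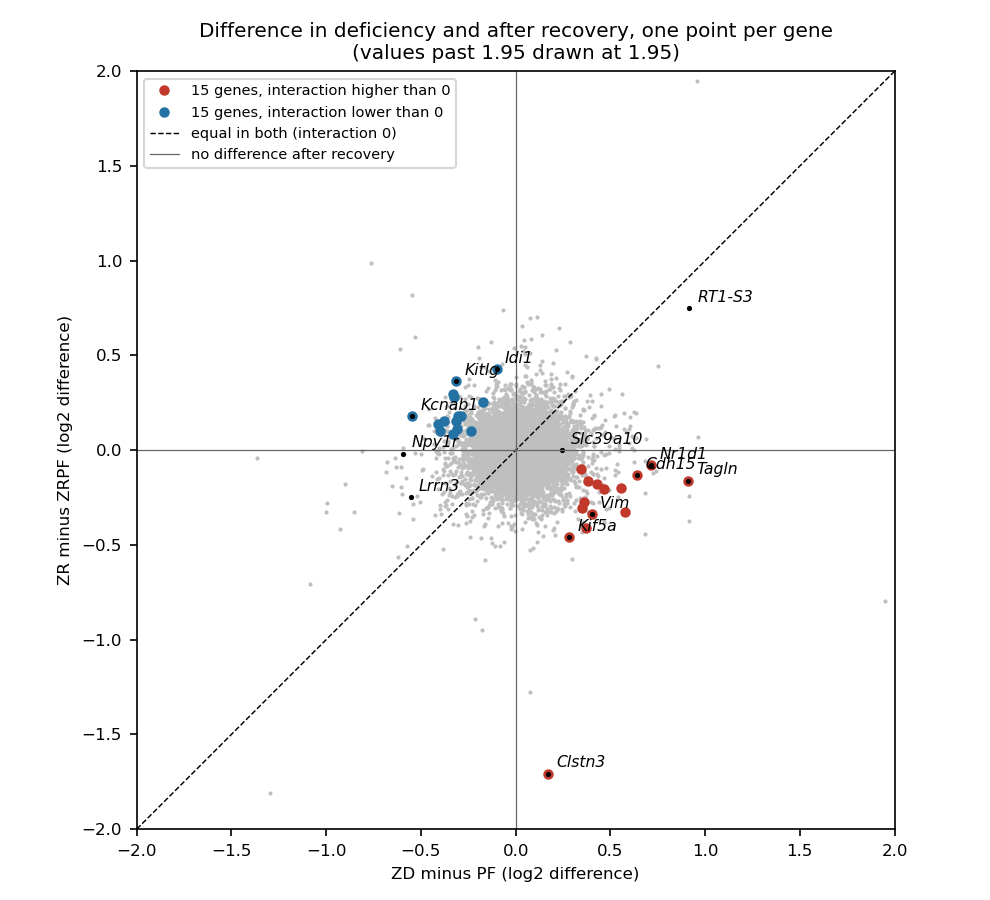
Log2 difference of ZD minus PF (horizontal) against ZR minus ZRPF (vertical), with 1 grey point for each of 9278 genes (brightest tested probe set) and the 15 genes ranked first in each direction in colour (probe set of smallest p). On the dashed diagonal the interaction is 0. *Clstn3* stands alone at -1.71 on the vertical axis, *RT1-S3* lies near the diagonal, and *Vim* and *Kif5a* lie in the quadrant where ZD was higher and ZR lower than its control.

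*Vim* had the smallest p. It encodes vimentin, an intermediate filament of tanycytes, ependyma, immature or reactive astrocytes and vascular cells. The PF arrays stood at 10.48, 10.67, 10.57 and 10.55 on the log2 signal scale and the ZD arrays at 10.86, 11.20, 11.17 and 10.67. In the later experiment the ZRPF arrays stood at 10.90, 11.03, 11.12 and 10.93 and the ZR arrays at 10.66, 10.60, 10.56 and 10.81. Thus ZD was above PF apart from ZD 9, which was level with the highest PF array, while every ZR array was below every ZRPF array. The interaction was 0.74 ± 0.14 (SE), a 1.67-fold ratio of ratios, made of 0.40 in deficiency and -0.34 after recovery (limma adjusted p = 0.375). Without ZD 9 it was 0.84, and *Vim* passed (adjusted p = 0.0366). On average over the list, ependyma and tanycyte markers were likewise higher in ZD and ZRPF than in PF and ZR. The mean log2 signal of the tested members was 9.03 to 9.15 in PF and 9.25 to 9.28 in ZD. It was 9.23 to 9.28 in ZRPF and 9.09 to 9.22 in ZR, and the list holds *Vim* itself. Of 13 tested members, 7 were higher in ZD and lower in ZR than in their controls (53.8%, against 30.6% of all genes). A further 4 were higher in both, 1 was lower in both and 1 went the other way round. Below the filter lay 7 of the 20 markers on the array. The part of these cells in the *Vim* values was not tested.

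The level of *Vim* in ZRPF (10.99 ± 0.10, SD, n = 4) was close to that in ZD (10.97 ± 0.25), and the level in ZR (10.66 ± 0.11) close to that in PF (10.57 ± 0.08). The pair-fed groups of the experiments, neither ever short of zinc, thus differed by 0.42. Of the 30 genes ranked first, 28 had a ZRPF minus PF difference of the sign of their interaction (93.3%), against 63.7% of all genes, and the ranking itself favours this. For such genes the value holds both the difference between ZD and ZR and a shift between the control groups.

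*Kif5a*, a motor protein heavy chain of neuronal transport, had the same pattern with a larger shift of controls. Its PF arrays ran 9.28, 9.51, 9.71 and 9.67, its ZD arrays 9.95, 9.95, 9.68 and 9.71. ZRPF stood at 10.29, 10.75, 10.46 and 10.59, and ZR at 9.88, 10.15, 9.99 and 10.24. ZR was below ZRPF in every array, whereas PF and ZD overlapped. The interaction was 0.74 ± 0.16, but the other 2 probe sets of *Kif5a* gave -0.02 ± 0.12 and -0.07 ± 0.26, so the value rests on 1 probe set.

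*Tax1bp3*, a small protein that consists of a PDZ domain, stood at 7.92, 8.18, 8.27 and 8.21 in PF and at 8.50, 8.47, 8.55 and 8.55 in ZD. In ZRPF it was 8.28, 8.52, 8.40 and 8.52, and in ZR 7.74, 8.12, 7.88 and 8.35. ZD was above all PF arrays, and ZR lay below ZRPF except for ZR 15 (interaction 0.78 ± 0.17). *Cirbp*, an RNA-binding protein induced by mild cold, was higher in ZD than in every PF array (9.77 ± 0.11 against 9.41 ± 0.13) and averaged 8.50 ± 0.10 in ZR against 8.80 ± 0.26 in ZRPF. Its interaction was 0.66 ± 0.16, and its other probe sets gave 0.57 ± 0.23 and 0.39 ± 0.12, the same direction. After recovery those stood at -0.04 ± 0.16 and -0.09 ± 0.08, against -0.30 ± 0.11 here, so the turn rests on 1 probe set. *Atg4d*, a protease of autophagy, gave 0.63 ± 0.17 (0.36 in deficiency, -0.27 after recovery).

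*Armcx6*, an armadillo-repeat protein, was the gene among those ranked first whose groups were apart in both experiments. The PF arrays were 8.35, 8.32, 8.22 and 8.14 and the ZD arrays 8.81, 8.69, 8.40 and 8.66. The ZRPF arrays were 8.41, 8.54, 8.46 and 8.38, and the ZR arrays 8.28, 8.30, 8.25 and 8.32. ZD lay above PF and ZR below ZRPF with no overlap, by 0.38 and -0.16 (interaction 0.54 ± 0.13, limma adjusted p = 0.649). *Hyal2*, a hyaluronidase outside the ranking and named for its lack of overlap, gave 0.45 ± 0.14, from 0.26 and -0.20 (adjusted p not past the threshold).

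Of the 19 genes with an unadjusted p under 0.05 in both experiments and opposite signs, 13 had an interaction above 0 and 6 below. *Cfdp1*, a chromatin-associated protein, was 10.63, 10.67, 10.62 and 10.53 in PF, and 10.34, 10.39, 10.56 and 10.46 in ZD. It was 10.19, 10.42, 10.30 and 10.35 in ZRPF, and 10.65, 10.44, 10.60 and 10.60 in ZR. ZD was lower with an overlap of 1 array, and ZR was higher than all of ZRPF (interaction -0.43 ± 0.10). *Vwc2*, a secreted antagonist of bone morphogenetic proteins, gave -0.61 ± 0.16, *Kitlg*, the ligand of the KIT receptor, -0.68 ± 0.19, and *Cntn6*, a contactin of neuronal adhesion, -0.63 ± 0.18. For *Kitlg*, ZD 8 at 10.47 lay within the PF range of 10.26 to 10.50 and the groups overlapped in both experiments. *Cntn6* overlapped in deficiency only, and all of its ZR arrays (8.30 to 8.65) were above its ZRPF arrays (8.14 to 8.27).

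A probe set with no gene listed had the third smallest p and was apart in both experiments. Its log2 signal was 9.10 ± 0.05 in PF, 8.45 ± 0.49 in ZD, 8.18 ± 0.33 in ZRPF and 8.89 ± 0.13 in ZR. The interaction was -1.35 ± 0.27 (adjusted p = 0.375), with -0.65 in deficiency and 0.71 after recovery. Without ZD 8 and ZD 9 it was -0.99.

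Each gene was counted once, by its probe set of smallest interaction p. The 100 genes of smallest such p were sorted by an unadjusted p under 0.05 in each experiment. A difference in deficiency only was found for 60, after recovery only for 21, and in both with opposite sign for 19. In both with the same sign there was none, an outcome that the choice by the interaction favours. Among all 9278 genes, the counts were 771 (8.31%), 499 and 19, and 28 had the same sign in both.

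**Figure D2:**
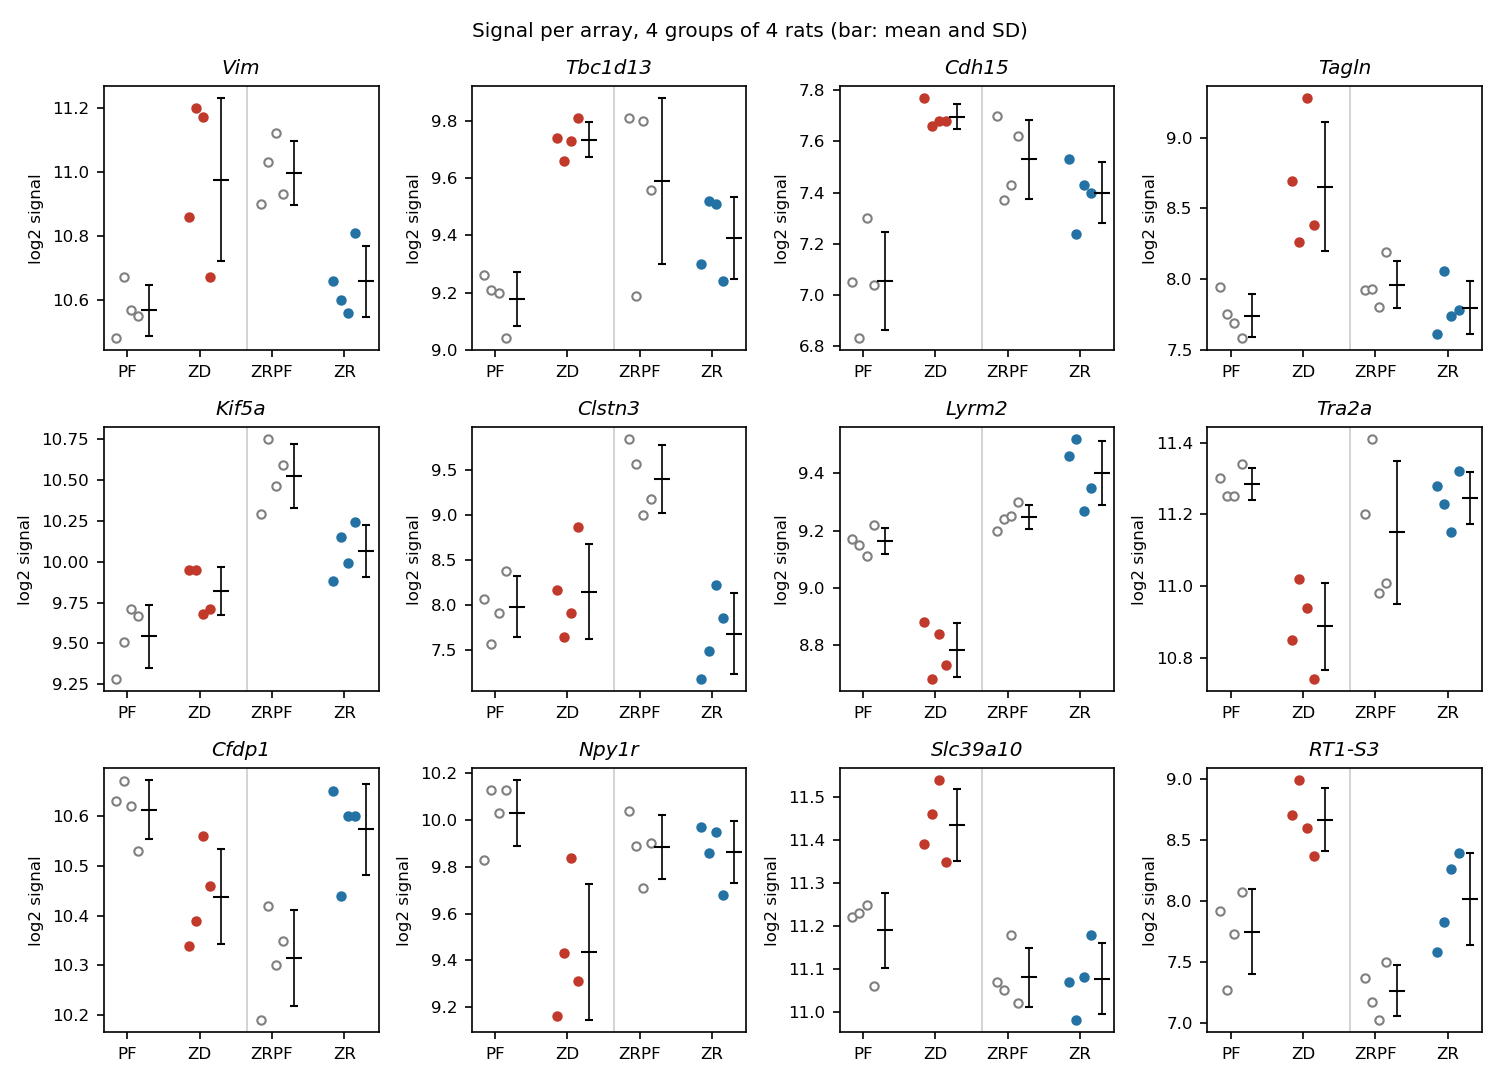
Log2 signal of 12 genes in each of the 16 arrays, with open circles for the pair-fed groups, filled circles for ZD and ZR, and bars for the mean and SD of 4 rats. The grey line separates the 10-day from the 16-day experiment. *Vim* and *Kif5a* stand higher in ZD and lower in ZR than in their controls, *Lyrm2* and *Npy1r* are low in ZD alone, *Clstn3* is high in ZRPF alone, and *RT1-S3* is higher in both ZD and ZR.

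The largest class held genes with an unadjusted p under 0.05 in deficiency and not after recovery, which does not show that they were level with their controls there. *Tbc1d13*, a Rab GTPase-activating protein of vesicle traffic, stood at 9.26, 9.21, 9.20 and 9.04 in PF and at 9.74, 9.66, 9.73 and 9.81 in ZD. After recovery it was 9.81, 9.19, 9.80 and 9.56 in ZRPF, and 9.30, 9.52, 9.51 and 9.24 in ZR. ZD was above PF without overlap, while ZR lay within the range of ZRPF, whose array 4 was as low as PF. The interaction was 0.76 ± 0.16 (adjusted p = 0.520), and without ZRPF 4 it was 0.89 and passed (adjusted p = 0.0349). *Cdh15*, a cadherin known from muscle, had 7.05, 6.83, 7.30 and 7.04 in PF and 7.77, 7.66, 7.68 and 7.68 in ZD. It had 7.70, 7.37, 7.43 and 7.62 in ZRPF, and 7.53, 7.24, 7.43 and 7.40 in ZR, so the difference of 0.64 in deficiency was -0.13 after recovery (interaction 0.77 ± 0.17).

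*Tagln*, which encodes the smooth muscle protein transgelin, gave the largest interaction of this class among the genes ranked first, 1.07 ± 0.25. Its PF arrays were 7.94, 7.75, 7.69 and 7.58 and its ZD arrays 8.69, 8.26, 9.28 and 8.38. Its ZRPF arrays were 7.92, 7.93, 7.80 and 8.19, and its ZR arrays 7.61, 8.06, 7.74 and 7.78. All ZD arrays were above all other arrays, and ZD 8 was the highest. Without ZD 8 and ZD 9 the interaction was 0.89. *Fbln1*, an extracellular matrix protein, gave 0.67 ± 0.18, and *Ezr*, which links the membrane to actin, 0.61 ± 0.14. *Glis2*, a zinc finger transcription factor, gave 0.44 ± 0.12, with ZD at 9.41 ± 0.03 and the means of the other groups at 9.06 to 9.19. *Ccdc107*, a coiled-coil protein, gave 0.90 ± 0.22, from 0.58 in deficiency and -0.33 after recovery, close to the recovery value of *Vim*. Its other probe set gave 0.24 ± 0.12.

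*Nr1d1*, the circadian repressor REV-ERB alpha, stood at 7.95, 7.90, 8.21 and 7.71 in PF and at 8.30, 8.49, 8.85 and 8.97 in ZD. It stood at 7.89, 8.00, 8.12 and 8.42 in ZRPF, and at 7.92, 8.05, 8.08 and 8.07 in ZR. ZD was above PF by 0.71 without overlap, and ZR differed from ZRPF by -0.08 (interaction 0.79 ± 0.21). The highest values were those of ZD 8 and ZD 9, and without them the interaction was 0.53.

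Among genes lower in deficiency, *Lyrm2*, a mitochondrial protein of the LYR family, had the smallest p. It stood at 9.17, 9.15, 9.11 and 9.22 in PF, and at 8.88, 8.68, 8.84 and 8.73 in ZD. It stood at 9.20, 9.24, 9.25 and 9.30 in ZRPF, and at 9.46, 9.52, 9.27 and 9.35 in ZR. All ZD arrays lay below all others, and ZR was level with or above ZRPF (interaction -0.53 ± 0.11, adjusted p = 0.423). A second probe set of *Lyrm2* gave 0.33 ± 0.17, the opposite sign, so its direction is not settled.

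*Tra2a*, a splicing activator, was 11.30, 11.25, 11.25 and 11.34 in PF and 10.85, 11.02, 10.94 and 10.74 in ZD. It was 11.20, 11.41, 10.98 and 11.01 in ZRPF, and 11.28, 11.23, 11.15 and 11.32 in ZR, within the ZRPF range. The interaction was -0.50 ± 0.12, and -0.24 ± 0.17 on the other probe set. *Zfp638*, a zinc finger protein that binds RNA, gave -0.55 ± 0.13, with -0.05 ± 0.18 and -0.21 ± 0.20 on its other probe sets. *Mphosph8*, which binds methylated histone tails in silent chromatin, gave -0.42 ± 0.10. Its other, brighter probe set gave -0.20 ± 0.10, from -0.06 ± 0.07 in deficiency and 0.15 ± 0.07 after recovery. *Agfg1*, an Arf GAP-related protein, gave -0.42 ± 0.10, with -0.18 ± 0.14 and -0.25 ± 0.11 on its other probe sets.

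*Emsy*, a partner of BRCA proteins, gave -0.47 ± 0.14, with -0.45 ± 0.22 and -0.02 ± 0.17 on its other probe sets. *Foxp2*, a forkhead transcription factor of thalamic and other neurons, gave -0.48 ± 0.14, and *Dpm1*, an enzyme of protein glycosylation, -0.34 ± 0.09. *Kcnab1*, a potassium channel subunit, gave -0.73 ± 0.20, with -0.23 ± 0.11 on its other, much brighter probe set. That one stood at -0.10 ± 0.08 in deficiency and 0.13 ± 0.08 after recovery. *Map7d2*, a microtubule-binding protein, gave -0.47 ± 0.14 and 0.09 ± 0.10, so its direction also differed between probe sets. In all, 12 of the 30 genes had a further tested probe set, and of these 17 probe sets 13 had the same sign and 4 the opposite, those of *Kif5a*, *Lyrm2* and *Map7d2*.

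*Npy1r*, a receptor through which neuropeptide Y promotes feeding, had the same pattern but lay outside the genes ranked first. It was 9.83, 10.13, 10.03 and 10.13 in PF and 9.16, 9.43, 9.84 and 9.31 in ZD. It was 10.04, 9.89, 9.71 and 9.90 in ZRPF, and 9.97, 9.86, 9.95 and 9.68 in ZR. Only ZD 8 reached the PF range, and ZR and ZRPF were level (-0.02). The interaction was -0.58 ± 0.17 (adjusted p = 0.747).

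A difference with an unadjusted p under 0.05 only after recovery was found for 21 of the 100 genes. *Clstn3*, a calsyntenin of synaptic membranes, had the second smallest p and an interaction of 1.88 ± 0.36, a 3.67-fold ratio of ratios (adjusted p = 0.375). Its PF arrays were 8.07, 7.57, 7.91 and 8.38 and its ZD arrays 8.17, 7.65, 7.91 and 8.87. Its ZRPF arrays were 9.84, 9.56, 9.00 and 9.18, and its ZR arrays 7.18, 7.49, 8.22 and 7.86. The ZRPF group stood above all other arrays, and ZD and PF overlapped (difference 0.17 ± 0.26). ZR minus ZRPF was -1.71 ± 0.26 and passed (limma adjusted p = 0.046), a call that was lost without any 1 of 10 of the 16 arrays. *Idi1*, an isomerase of isoprenoid and cholesterol synthesis, was level in ZD and PF (-0.10), with means of 9.87 and 9.97. It was 9.12, 8.77, 8.58 and 8.75 in ZRPF, and 9.20, 9.18, 9.30 and 9.27 in ZR. All ZR arrays were above ZRPF but below PF and ZD (interaction -0.53 ± 0.16). The control groups of *Idi1* differed by -1.16 (ZRPF minus PF). Its brighter probe set gave -0.06 ± 0.09. *Adipor2*, an adiponectin receptor, was a preset gene that lay outside these 100. It stood at -0.08 in deficiency and -0.50 after recovery (interaction 0.42 ± 0.18), with 0.03 ± 0.24 on its other probe set.

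*RT1-S3*, an MHC class I gene, had differences of similar size in both experiments. It stood at 7.92, 7.27, 7.73 and 8.07 in PF and 8.70, 8.99, 8.60 and 8.37 in ZD. It stood at 7.37, 7.17, 7.02 and 7.5 in ZRPF, and 7.58, 7.83, 8.26 and 8.39 in ZR. It was higher than in the controls without overlap in both, by 0.92 and 0.75, and the interaction was 0.17 ± 0.27. Its other probe sets gave 0.01 ± 0.22 and 0.05 ± 0.26. Other genes kept the sign with a smaller difference after recovery, and their interactions had an unadjusted p under 0.05. *Lrrn3*, a neuronal membrane protein with leucine-rich repeats, stood at -0.55 in deficiency and at -0.25 after recovery (interaction -0.31 ± 0.13). *Gpd1*, the cytosolic glycerol-3-phosphate dehydrogenase, stood at -1.0 and -0.33 (interaction -0.68 ± 0.30), and *Cryab*, a small heat shock protein, at -0.86 and -0.32 (-0.53 ± 0.25).

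Genes were also chosen on ZD and PF alone and read in the other 8 arrays. Genes picked by their p have inflated differences in the arrays that picked them, so a smaller median elsewhere follows in part from the choice and is only a description. The 50 genes of smallest p that were higher in ZD had a median difference of 0.46 there, and 0.02 in ZR minus ZRPF (quartiles -0.09 to 0.08). The 50 lower genes went from -0.38 to -0.02 (quartiles -0.12 to 0.02). In both sets 32 of 50 kept the sign and 18 had the opposite one. Of all genes, 2321 of the 5162 higher in ZD than in PF were also higher in ZR than in ZRPF. Likewise, 2081 of the 4116 lower in ZD were also lower in ZR. The medians of all genes were 0.0168 and -0.0081. A difference of the same sign with an unadjusted p under 0.05 was left for *RT1-S3* and *C1qtnf12* among the higher and for *Lrrn3* and *Per2* among the lower genes, and *Vim* was the gene with the opposite sign at that level. Chosen by their p for ZR minus ZRPF, the 50 higher genes had a median of 0.36 and stood at 0.05 in ZD minus PF. The 50 lower genes went from -0.36 to -0.02. Counts of all genes at an unadjusted p under 0.05 were taken by brightest probe set, not by the smallest p used for these choices. ZD minus PF had 440 higher (4.74%) and 297 lower (3.2%). ZR minus ZRPF had 212 higher (2.28%) and 234 lower (2.52%), or 446 (4.81%) in all.

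**Figure D3:**
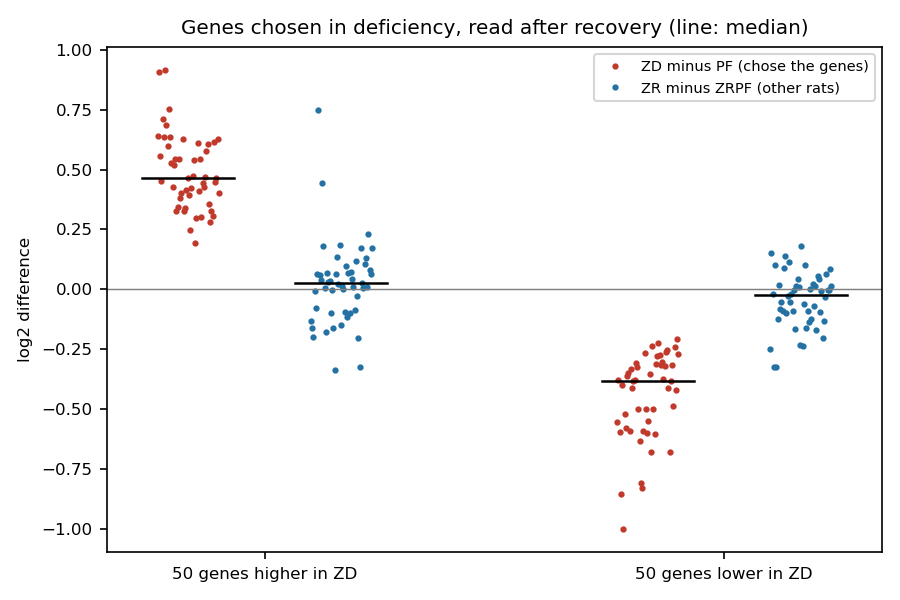
Log2 differences of the 50 genes of smallest p higher in ZD and the 50 lower in ZD. Red points are ZD minus PF, by which the genes were chosen, and blue points are ZR minus ZRPF in other rats. Black lines are medians, which go from 0.46 to 0.02 and from -0.38 to -0.02.

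Gene lists give the pathway view. Of 9278 genes, 600 (6.47%) had an unadjusted p under 0.05 for the interaction. Of these, 337 (3.63%) lay above 0 and 263 (2.83%) below, and 56.5% of all genes lay above 0. For ZD minus PF the share above 0 was 55.6%, and for ZR minus ZRPF 46.9%. No member of any list passed the threshold for the interaction, and the counts below are of unadjusted p under 0.05.

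The zinc handling genes that were tested, among them 8 of 12 importers and 6 of 9 exporters on the array, showed little of the pattern. Of the 8 tested importers 4 lay above and 4 below 0, and 1 had an unadjusted p under 0.05, *Slc39a10*, a plasma membrane importer. Its PF arrays were 11.22, 11.23, 11.25 and 11.06 and its ZD arrays 11.39, 11.46, 11.54 and 11.35. Its ZRPF arrays were 11.07, 11.05, 11.18 and 11.02, and its ZR arrays 11.07, 10.98, 11.08 and 11.18. The difference of 0.25 without overlap in deficiency was 0.00 after recovery (interaction 0.25 ± 0.09, adjusted p = 0.747). *Slc39a1* gave -0.17 ± 0.13, *Slc39a6* -0.18 ± 0.15, and *Slc39a3* -0.23 ± 0.18, although a dimmer probe set of it gave 0.77 ± 0.29. *Slc39a7*, an importer of the endoplasmic reticulum, was higher in both experiments, by 0.43 and 0.49. The median interaction of the importers was -0.01 and changed sign in 6 of 27 alternatives.

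Of the 6 tested exporters none had an unadjusted p under 0.05, with *Slc30a5* at 0.22 ± 0.17 and *Slc30a6* at 0.15 ± 0.13. The exporter *Slc30a1* and the metallothionein *Mt1* lay below the filter and were not tested. *Mt3*, the metallothionein of the brain, gave 0.20 ± 0.14, *Mt2A* -0.15 ± 0.27 and *Mtf1* -0.04 ± 0.11. The metallothionein *Mt2A* ranged from 9.88 to 10.92 within ZRPF alone, wider than any difference between group means.

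Among 17 feeding peptides, 2 were above and 1 below 0 at an unadjusted p under 0.05, and the median was 0.03. It changed sign in 5 of 27 alternatives, running from -0.01 without ZR 15 to 0.09 without ZR 10, and 4 members had such a p without ZD 8 and ZD 9. *Gal*, galanin, an appetite-raising peptide, stood at -0.31 in deficiency and 0.16 after recovery (interaction -0.48 ± 0.19). *Cartpt*, an appetite-reducing peptide, gave 0.39 ± 0.18 and *Nucb2*, the precursor of nesfatin, 0.42 ± 0.18. *Npy* gave 0.19 ± 0.16. Of the 6 tested receptors for feeding peptides and hormones, *Npy1r* and *Adipor2* had an unadjusted p under 0.05, in opposite directions. In the vasopressin and oxytocin system 0 of 6 had one, with *Oxt* at -0.26 ± 0.32 and *Avp* at -0.10 ± 0.40, both of which changed sign without ZD 8.

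Glucocorticoid-induced genes were not among those undone. Of 18 tested, 17 were lower than in the controls in both experiments, where 22.4% of all genes were, and none had an interaction with an unadjusted p under 0.05. Their median was -0.30 in deficiency and -0.27 after recovery. *Sox2*, a progenitor factor, was the member that stood higher in both (0.12 and 0.27). *Ddit4*, a stress-induced inhibitor of mTOR signalling, gave -0.41 ± 0.33, *Tsc22d3* -0.07 ± 0.14 and *Fkbp5* 0.14 ± 0.29. This list was described in earlier work on these data, and its direction is no independent evidence.

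Cytosolic heat shock chaperones were lower in ZD in 20 of 20 members and in ZR in 16. Of all 9278 genes, 4116 were lower in ZD and 4922 in ZR. Of the 20 chaperones, 4 had an interaction below 0 at an unadjusted p under 0.05, against 2.83% of all genes. These were *Hspa4* (-0.44 ± 0.15), an Hsp70-family exchange factor, *Chordc1* (-0.40 ± 0.17), *Dnaja1* (-0.21 ± 0.09) and *Cryab*. *Hspa4* stood at -0.19 in deficiency and 0.25 after recovery, and *Dnaja1* at -0.18 and 0.03. In all, 4 of 20 were lower in ZD and higher in ZR than in their controls. Of the 19 chaperones of the endoplasmic reticulum 14 were lower in both experiments (73.7%, against 22.4% of all genes). *Sdf2l1* alone (-0.51 ± 0.22) had an interaction with an unadjusted p under 0.05. *Hspa5*, the main chaperone there, stood at -0.38 in deficiency and -0.13 after recovery.

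Clock genes lay on both sides of 0. Of 18, 2 were above 0 at that level, *Nr1d1* and *Per3* (0.62 ± 0.26), and the list median was -0.06, which changed sign in 6 of 27 alternatives and was 0.02 without PF 1. *Dbp*, a clock output factor, gave 0.34 ± 0.17. For *Per3* the PF and ZD arrays overlapped, and it was level after recovery (0.00). No immediate early gene of 10 had an unadjusted p under 0.05, with *Nr4a2* at -0.40 ± 0.22 and *Klf4* at 0.28 ± 0.14.

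Respiratory chain and ATP synthase subunits had small values in a common direction. Of 67, 52 were higher in ZD and lower in ZR than in their controls (77.6%, against 30.6% of all genes), and the medians were 0.02 and -0.06, with a median interaction of 0.09. Members at an unadjusted p under 0.05 were *Ndufa11* (0.29 ± 0.11), *Ndufb8* (0.40 ± 0.17) and *Sdhc* (0.21 ± 0.09). The count above 0 was 62 of 67 as deposited and 51 after median centring, where none had an unadjusted p under 0.05, and the median was 0.03 without ZD 9. Cytosolic ribosomal proteins gave 32 of 34 above 0 (28 after centring), a median of 0.12, and *Rps15* (0.24 ± 0.10), *Rpl4* (0.18 ± 0.08) and *Rps6* (0.20 ± 0.09) at that level. Their median was 0.06 after centring, where none had an unadjusted p under 0.05, and 0.05 after quantile normalization. Probe sets of ribosomal proteins can share sequence with pseudogenes, which makes single members uncertain.

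In cholesterol synthesis, 16 of 21 were above 0, with *Srebf2*, its main transcription factor, at 0.28 ± 0.11, *Fdps* at 0.26 ± 0.11 and *Insig1* at 0.30 ± 0.13. After median centring 11 of 21 were above 0, none had an unadjusted p under 0.05, and the median was 0.03 in place of 0.08. For *Insig1* the ZD arrays lay above all PF arrays (difference 0.31) and ZR was level with ZRPF (0.01). In the amino acid response and serine synthesis list 2 of 17 were above 0 at that level. *Phgdh*, the first enzyme of serine synthesis, was 11.21 to 11.34 in PF and 11.48 to 11.58 in ZD, and after recovery 11.32 to 11.72 in ZRPF and 11.20 to 11.43 in ZR (interaction 0.40 ± 0.12). *Asns*, asparagine synthetase, gave 0.24 ± 0.10. Of 24 antioxidant enzymes 1 stood at that level, *Gstp1* (0.23 ± 0.09). Of 11 interferon and MHC genes it was *Cd74*, the MHC class II invariant chain (1.12 ± 0.38), whose groups overlapped in both experiments.

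Splicing and paraspeckle proteins leaned the other way, with 26 of 37 below 0 and a median of -0.13. Below 0 at an unadjusted p under 0.05 were 4, *Tra2a*, *Pnn* (-0.70 ± 0.21), *Hnrnpa1* (-0.32 ± 0.12) and *Pspc1* (-0.50 ± 0.20), and above 0 was *U2af1* (0.42 ± 0.13), a subunit of the factor that finds the splice acceptor. *Tra2a* and *Hnrnpa1* stood at -0.40 and -0.24 in deficiency without overlap, though the dimmer probe sets of *Hnrnpa1* gave interactions of -0.19 ± 0.20 and 0.09 ± 0.08. *Pnn* and *Pspc1* instead differed after recovery, by 0.57 and 0.58, with -0.13 and 0.08 in deficiency. The list thus held both patterns, and the median kept its sign in all 27 alternatives but was -0.07 without ZD 9.

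**Figure D4:**
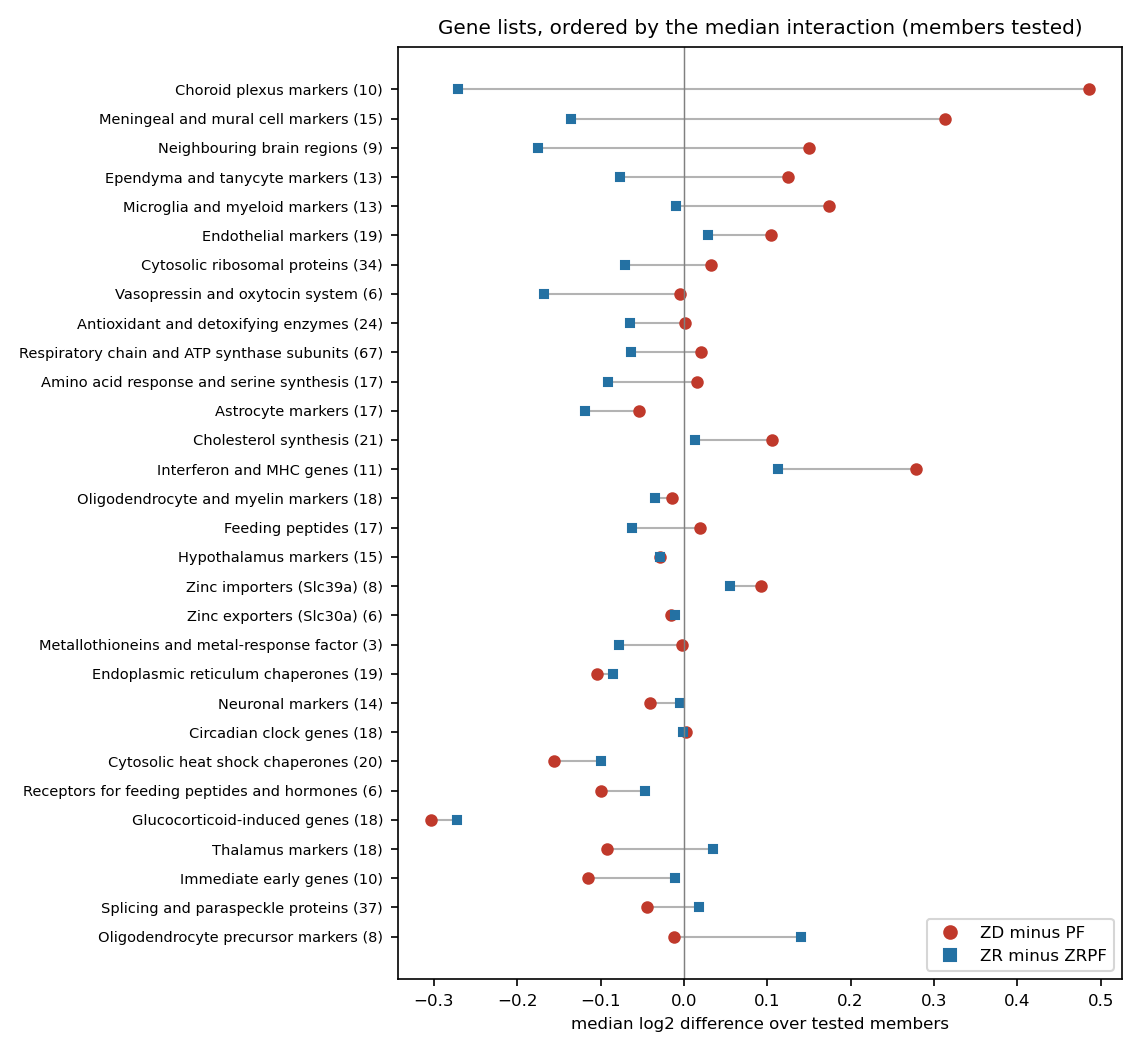
Median log2 difference over the tested members of each gene list (number in parentheses) for ZD minus PF (red circles) and ZR minus ZRPF (blue squares), ordered by the median interaction, for the lists with at least 3 tested members. The choroid plexus and mural lists span 0 from right to left, and the glucocorticoid list has both points near -0.3.

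Markers of tissue at the edges of the diencephalon, choroid plexus and meningeal and mural cells, had the largest median interactions of the lists, 0.79 and 0.53. Meningeal and mural cell markers lay above 0 in 15 of 15 tested members, 7 of them at an unadjusted p under 0.05, and 10 were higher in ZD and lower in ZR than in the controls. Their median was 0.31 in deficiency and -0.13 after recovery. The members of smallest p were *Tagln*, *Vtn* (0.49 ± 0.16), *Serping1* (0.57 ± 0.19) and *Mgp* (0.53 ± 0.21). *Acta2*, *Cnn1* and *Pdgfrb*, defining markers of mural cells, lay below the filter. The mean log2 signal of the list was 8.56 to 8.82 in PF, 8.67 to 9.41 in ZD, 8.58 to 9.01 in ZRPF and 8.47 to 8.64 in ZR, so PF and ZD overlapped, and ZD 9 was no higher than PF. Its part in the values of *Tagln*, *Fbln1* and *Vim* was not tested.

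Choroid plexus markers lay above 0 in 10 of 10 tested members, with *Ttr*, transthyretin, at 3.95 ± 1.81, *Igfbp2* at 0.80 ± 0.35 and *Slc22a8* at 0.47 ± 0.20. The list stood at 8.39 to 8.70 in PF and at 8.62 to 9.73 in ZD. After recovery it ran from 8.48 to 10.36 in ZRPF and from 8.37 to 10.17 in ZR, with 2 high and 2 low arrays in each. *Ttr* itself ranged from 9.03 to 14.37 in ZRPF and from 8.35 to 14.28 in ZR. With the choroid and thalamus lists as covariates *Vim* stood at 0.65, *Tbc1d13* at 0.72, *Cdh15* at 0.81, *Tagln* at 1.01 and *Lyrm2* at -0.55, close to the values without them, and *Kitlg* at -0.46, *Ezr* at 0.46 and *Cntn6* at -0.48, nearer to 0. No sign changed among the 30 genes.

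**Figure D5:**
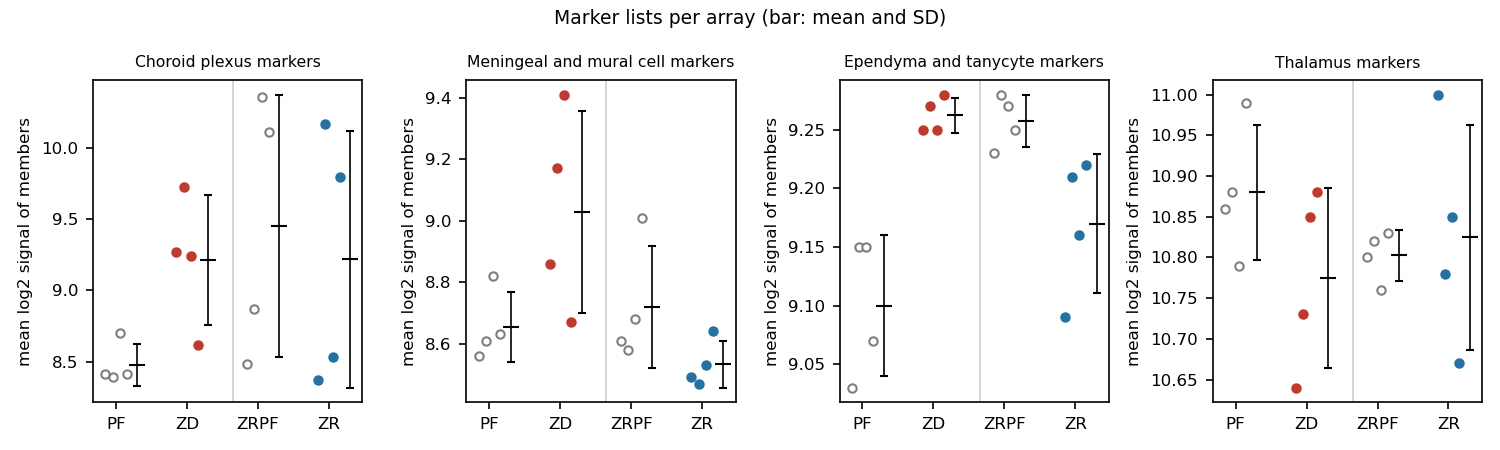
Mean log2 signal of the tested members of 4 marker lists in each of the 16 arrays, with bars for the mean and SD of 4 rats. Choroid plexus markers split into 2 high and 2 low arrays in both ZRPF and ZR, and mural markers are highest in ZD 8 at 9.41.

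Of the other cell types, ependyma and tanycyte markers were above 0 in 11 of 13 members, with *Vim* the 1 at an unadjusted p under 0.05. Microglia markers were above 0 in 11 of 13, led by *Lyz2*, lysozyme (0.46 ± 0.13), which was 10.67 ± 0.18 in ZD and 10.21 to 10.33 on average in the other groups. Endothelial markers were above 0 in 15 of 19, with *Vwf*, the von Willebrand factor, at 0.71 ± 0.20. Astrocyte markers had 0 of 17 at that level, and oligodendrocyte markers 1 of 18, *Sox10* (0.45 ± 0.16). Precursor cells of the oligodendrocyte line had *Lhfpl3* (-0.26 ± 0.12) of 8 tested.

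Of the neuronal and regional markers, those of the thalamus were below 0 in 14 of 18, with *Synpo2* at -0.35 ± 0.14 and *Vav3* at -0.31 ± 0.14, the 2 members at an unadjusted p under 0.05 (7 without ZD 8 and ZD 9). Their list level was 10.79 to 10.99 in PF and 10.64 to 10.88 in ZD. Hypothalamus markers had a median of 0.01, which changed sign in 14 of 27 alternatives, and *Calcr*, the calcitonin receptor, gave -0.49 ± 0.20. General neuronal markers had 1 of 14 below 0 at that level, *Nefm* (-0.26 ± 0.12). Markers of striatum, cortex, hippocampus and pituitary had a median of 0.33 over 9 members, none at an unadjusted p under 0.05. That median was 0.74 without ZD 8 and ZD 9, with 5 of 9 members at that level, 0.16 without ZRPF 5, and 0.05 with the choroid and thalamus covariates. Of the blood markers *Hbb* gave 0.42 ± 0.26, and 0.15 without ZR 7. The shares of these cell types and regions in the single genes were not tested.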

How the data were processed

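Biotin-labelled RNA from 16 diencephalons was measured on Affymetrix arrays, 1 rat and 1 array each. The deposited intensities were linear signals made with MAS5, per the submitters' processing notes, whose version is not given in the sources used here. The table held 31099 probe sets. All else was computed from it. Intensities were taken as log2 with no further normalization. After 57 controls were set aside, probe sets with a mean log2 signal of at least 7.351 (the median) were tested, 15521 in all. Gene names came from the platform annotation, updated through a RefSeq gene table: 20826 probe sets had 1 gene, 436 several and 9780 none. Groups were fitted together with limma 3.58.1 (R 4.3.3, empirical Bayes with intensity trend), p-values were two-sided and Benjamini-Hochberg adjusted over tested probe sets, and standard errors are from this fit. Rats were separate animals, and 4 per group limit the precision. Genes are represented by their brightest probe set in lists and by that of smallest p in rankings. The text names the 15 genes of smallest interaction p in each direction, a preset group of genes for zinc, salt and appetite, and at most 4 of each list by their p. Any other gene completes a count or is said to be chosen after its values were seen. The members, the 31 lists and the genes were chosen with earlier results of these data known. Alternatives were scaling, filter, offset, trend, weights, covariates, a replicate block and leaving out arrays. The steps were tested on simulated data.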

Additional observations from a re-analysis of the deposited data

Results flagged for a closer look

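In 6 of 196 groups of 4 arrays that were looked at for the named genes, 1 array lay far from the other 3, and chance gives about 5% of groups. *Cirbp* was 8.34 in array ZR 7 and 8.54 to 8.55 in the other ZR arrays, and *Nr1d1* was 7.92 in ZR 7 and 8.05 to 8.08 in the others. *Atg4d* was 8.48 in PF 2 against 8.23 to 8.25. *Slc39a10* was 11.06 in PF 6 against 11.22 to 11.25, and all 4 PF arrays lay below the ZD arrays, at 11.35 to 11.54. *Npy* was 10.00 in ZD 8 against 10.48 to 10.57, and *Cartpt* was 11.22 in ZR 15 against 10.91 to 10.95.

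*Armcx6* (interaction 0.54) and *Hyal2* (0.45) were the genes whose arrays did not overlap in either experiment and moved in opposite directions. They were 2 of 9278 genes (0.0216%), fewer than the 8 (0.0862%) apart in the same direction. Arrays were free of overlap for 4.35% of genes in ZD and PF and 2.82% in ZR and ZRPF. The difference between the experiments was tested by the interaction, which neither *Armcx6* nor *Hyal2* passed after adjustment.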

How the results depend on the processing

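The interaction called 0 probe sets as deposited and 0 to 1 over the 16 fits that each left out 1 array: *Vim* without ZD 9 (0.84, adjusted p = 0.0366) and *Tbc1d13* without ZRPF 4 (0.89, adjusted p = 0.0349). ZD minus PF called 0, 0 to 3 with 1 array left out (3 without ZD 8), and 1 without ZD 8 and ZD 9. ZR minus ZRPF called 1, 0 to 9 with 1 array left out (9 without ZRPF 6, and 0 without any 1 of 10 arrays), and 0 under quantile normalization, no filter, a stricter filter on dim probe sets, no intensity trend and the Gapdh covariate. Of the 30 genes ranked first none changed sign in any of 27 alternatives, and none passed under more than 1. Without ZD 8 and ZD 9 the sign changed for *Avp* (0.055), *Fkbp5* (-0.180), *Mtf1* (0.020), *Dusp1* (0.098) and *Tnr* (0.038). With 1 array left out *Mt2A* ran from -0.315 to 0.029, *Avp* from -0.426 to 0.331, *Oxt* from -0.553 to 0.009, *Fkbp5* from -0.034 to 0.288, *Tsc22d3* from -0.138 to 0.046 and *Mtf1* from -0.083 to 0.019; the cause was not tested. Rats of the same number in different groups did not pair (correlations of deviations 0.079, 0.020 and 0.035 between PF and ZRPF), and with the replicate number as a random block the interaction called 0. With no filter on dim probe sets the smallest adjusted p for the interaction was 0.0904.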

Other observations

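Below the filter, dim probe sets gave the largest interactions of all. With no filter, a probe set with no gene listed stood at -2.51 ± 0.38 (limma adjusted p = 0.0904), with -1.05 in deficiency and 1.46 after recovery. *Htr6*, a serotonin receptor, stood at -3.81 ± 0.66 and *Pknox1*, a homeobox factor, at 5.70 ± 1.09. These were chosen after their values were seen, and log2 values of such dim probe sets vary widely.

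Between the experiments, ZR minus ZD had the opposite sign to the interaction in 25 of the 30 genes ranked first (83.3%), against 63.8% of all genes, a share the ranking itself raises. The Gapdh ratio of 3 prime to 5 prime signal, which reads the integrity and labelling of the RNA, was 0.0476 to 0.154 on the log2 scale in the 10-day arrays and 0.146 to 0.300 in the 16-day arrays, and its part in levels compared across the experiments was not tested.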
